A study of Homo sapiens with 3 samples.

Results

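The 49 genes described here encode the proteins that detect, signal and repair DNA double-strand breaks, and their mRNA was compared in irradiated bladder cancer cells with and without knockdown of HDAC6. The members were named by symbol, and the rule that chose them uses no measured value. The list and the roles were nevertheless drawn up with earlier results of these data known. All 49 of 49 symbols were found among the 58381 genes of the count table, and 48 of them had at least 100 reads in 1 or more libraries. The libraries came from T24, an established line of human bladder urothelial carcinoma, and there was 1 library per group. By the labels, Ctrl cells carried the control pLKO.1 lentiviral vector and were not irradiated, and RT cells carried the same control vector and received 10 Gy from a caesium source. RT + shHDAC6 cells carried an shRNA vector against HDAC6, a cytoplasmic deacetylase, and received 10 Gy. Infected cells had been selected with puromycin. The vector in the Ctrl and RT cells is taken from the labels' protocol. The study's results describe the irradiated comparator as parental cells and the unirradiated cells as untreated, so either library may come from cells without a vector. No unirradiated knockdown library was analysed here, so an effect of the knockdown alone cannot be told apart from one that needs radiation. The time between irradiation and RNA extraction is not given in the sources used here.

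Ionising radiation breaks both strands of DNA, and the broken ends are recognised by the MRE11-RAD50-NBN complex and by the Ku heterodimer. The kinases ATM, ATR and DNA-PK then mark the surrounding chromatin and arrest the cell cycle. Breaks are religated directly by end joining, or are resected and copied from the sister chromatid by homologous recombination, which works mainly in S and G2 phase. Most of these proteins are controlled after translation, by phosphorylation and ubiquitin, and mRNA levels say nothing of that layer.

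The libraries held 41811165 (Ctrl), 35959265 (RT) and 35424086 (RT + shHDAC6) counted reads, of which the 49 genes took 0.6068%, 0.6218% and 0.6608%. HDAC6 itself had 3098, 2383 and 2170 reads, a log2 ratio of -0.20 (95% counting interval -0.28 to -0.11) in RT + shHDAC6 against RT. Its mRNA was thus only slightly lower in the library labelled as the knockdown. In its shHDAC6 T24 cells the study reported lower HDAC6 mRNA by qPCR and lower HDAC6 protein by Western blot. The carcinoma line expressed VIM (121716, 74147 and 95822 reads) and KRT18 (7336, 8362 and 9048 reads), whereas the urothelial differentiation markers UPK1A, UPK1B, UPK2, UPK3A and KRT20 had at most 18 reads in any library. Among markers of other cells, PTPRC of leukocytes had 120, 66 and 57 reads and PECAM1 of endothelium had 489, 209 and 323 reads. The cytokeratin KRT7 differed most in the knockdown library, with 3533, 3854 and 597 reads. Of 9 urothelial and epithelial markers with at least 100 reads in 1 library, 3 were at least 1.5-fold lower in RT + shHDAC6 than in RT. That is 33.33%, beside 5.757% of all genes. None of the 9 was 1.5-fold higher, although 6 had a log2 ratio above 0. Of 3 mesenchymal markers, 1 was lower. In bulk RNA, fewer cells that express a gene and less RNA per cell cannot be told apart.

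Expression was compared as log2 ratios of reads scaled by TMM, a factor that aligns the bulk of genes between libraries. With 1 library per group no test between conditions exists and no p-value is given. The intervals are exact binomial (Clopper-Pearson) 95% intervals of the ratio of 2 libraries, and they cover counting error only, since the reads carry no molecular identifiers and may repeat a molecule. A gene was counted as higher or lower when the libraries were at least 1.5-fold apart, a log2 ratio of 0.585, among the 12733 genes with at least 100 reads in 1 or more libraries. The scale itself was uncertain in RT against Ctrl. The median log2 ratio of all 12733 genes was 0.05 after TMM and -0.17 with library totals alone, a shift of -0.22, and ratios of the repair genes are therefore read against the median of all genes.

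Per length of transcript, the Ku heterodimer was the most abundant part of the pathway. In Ctrl, XRCC6 (Ku70) stood at 789.3 and XRCC5 (Ku80) at 517.8 TPM (length-normalised abundance, from canonical transcript lengths). XRCC6 had 25394, 19843 and 19758 reads and XRCC5 had 26527, 20385 and 20258 reads in Ctrl, RT and RT + shHDAC6. PRKDC, the catalytic subunit of DNA-PK that Ku recruits, followed at 238.5 TPM with 48672, 49071 and 53560 reads. PARP1, which senses strand breaks and builds poly(ADP-ribose), stood at 237.7 TPM with 14336, 11065 and 12549 reads. RBBP8 (CtIP), which starts resection with MRE11, stood at 92.46 TPM with 4591, 3466 and 4169 reads. The order below Ku and PRKDC depends on the length used. With the length of all annotated exons of a gene in place of the canonical transcript, PARP1 stood at 84.01 TPM, below RECQL4 (114.6), TOPBP1 (111.6), RBBP8 (97.48) and MDC1 (95.87).

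At the other end, NHEJ1 (XLF), which bridges the ends with XRCC4, was listed at 0.33 TPM with 40, 27 and 24 reads and did not reach the read minimum. RAD50, the ATPase of the MRE11 complex, stood at 4.54 TPM with 569, 345 and 340 reads, and RAD54B, a recombination translocase, at 4.78 TPM with 223, 191 and 205 reads. The levels of these 3 genes are uncertain. Exons of another gene on the same strand covered 91.0% of the canonical RAD50 transcript, 65.5% of RAD54B (the gene FSBP) and 24.3% of NHEJ1, and the handling of reads shared by genes is not given in the sources used here. The same held for BABAM1, at 59.9%. The partner of MRE11 and NBN thus read at 4.54 TPM beside 54.82 TPM for MRE11 and 46.65 TPM for NBN (18.15 TPM by all exons), whose products form 1 complex. CHEK2 and XRCC6 have processed or duplicated copies elsewhere in the genome that could also share reads.

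**Figure D1:**
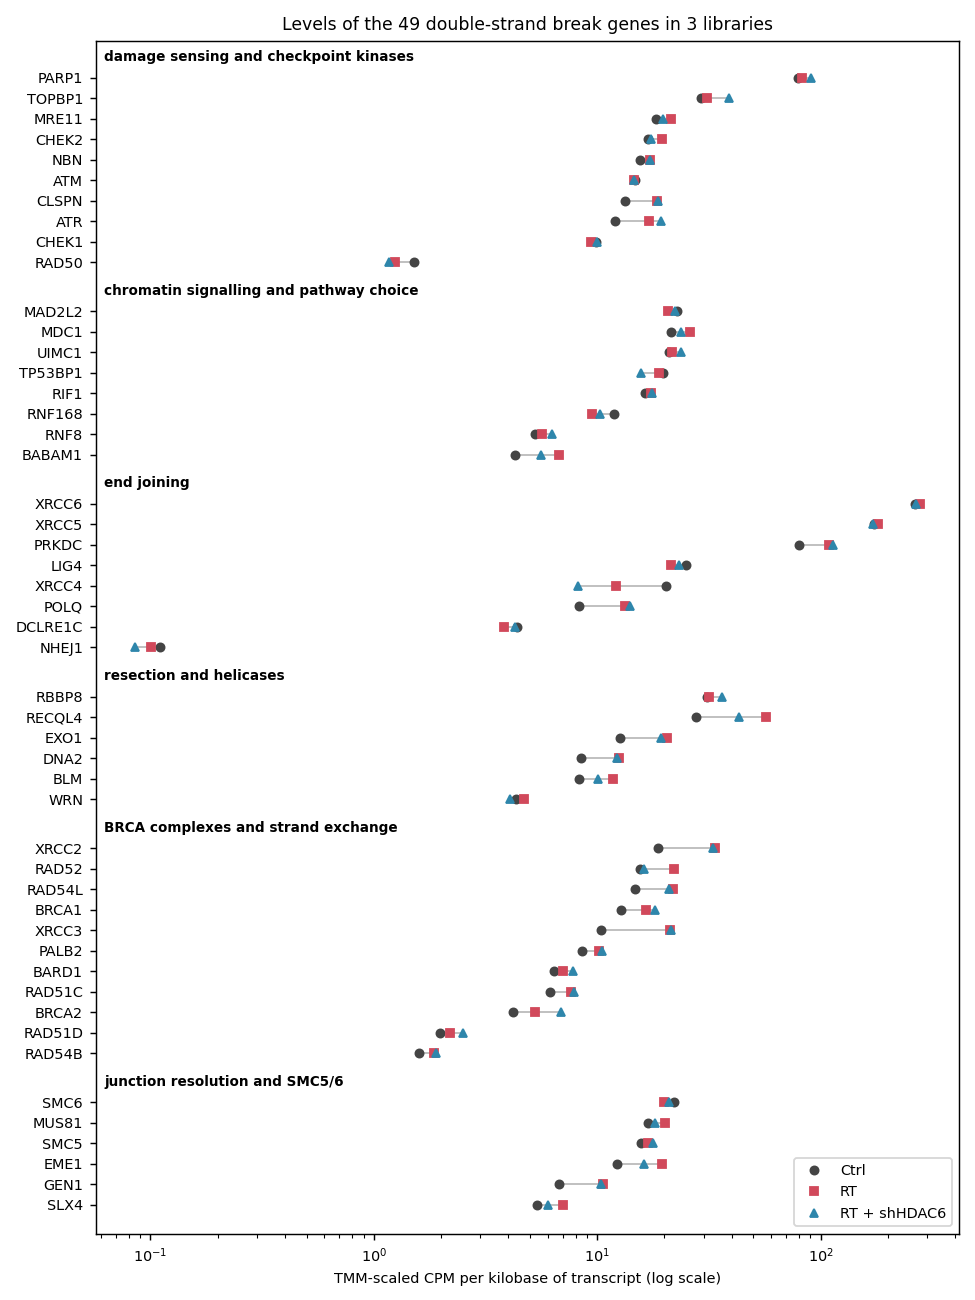
TMM-scaled CPM per kilobase of canonical transcript (log axis) of the 49 genes in Ctrl (circles), RT (squares) and RT + shHDAC6 (triangles), 1 library each, grouped by role and ordered by the level in Ctrl; grey lines join the lowest and highest library. XRCC6 and XRCC5 lie farthest right, at 263.9 and 173.1 in Ctrl, NHEJ1 lies far to the left at 0.11, and for most genes the libraries lie close together compared with the distance between genes.

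In RT against Ctrl, 8 of the 48 genes were at least 1.5-fold higher, namely RECQL4, XRCC3, XRCC2, EXO1, POLQ, EME1, BABAM1 and GEN1, and 1 was lower, XRCC4. Among all genes tested, 15.8% were higher and 10.1% were lower, beside 16.67% and 2.083% of the repair genes. The share of higher genes was thus near that of all genes, and the count of 8 is no result about the pathway. The median log2 ratio of the repair genes was 0.21, which is 0.16 above that of all genes, and 36 of 48 lay above the median of all genes. With library totals alone their median was -0.005 and 3 genes (RECQL4, XRCC3 and XRCC2) were higher. In that setting 1046 of all 12733 genes were higher and 2514 lower. Restricting the genes to those with at least 1000 reads in 1 library gave a median of 0.21 for 43 repair genes beside 0.10 for 7664 genes. At that read level 18.28% of all genes were higher and 5.219% lower, beside 16.28% and 2.326% of the repair genes, the latter being XRCC4 alone.

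Of the 10 genes of damage sensing and checkpoint signalling, 0 were 1.5-fold apart in RT against Ctrl, beside 25.84% of all genes. Their median log2 ratio was 0.12. ATR, the kinase of resected DNA and stalled forks, had 4450 (Ctrl) and 4657 (RT) reads, a log2 ratio of 0.50 (0.44 to 0.56). CLSPN, the adaptor through which ATR activates CHK1, had a ratio of 0.48 (0.42 to 0.54). ATM, the kinase of unresected breaks, stood at -0.02 (-0.07 to 0.03) on 8671 and 6330 reads, with 6625 reads in RT + shHDAC6. The 2 kinases therefore lay apart by more than their counting intervals. Of their downstream kinases, CHEK1 had -0.08 (-0.18 to 0.02) and CHEK2 0.21 (0.10 to 0.33). In the MRE11 complex, MRE11 had 0.23 (0.17 to 0.28), NBN 0.14 (0.06 to 0.21) and RAD50 -0.29 (-0.48 to -0.09), with the limit on RAD50 reads given above. TOPBP1, the activator of ATR, stood at 0.09 and PARP1 at 0.06, close to the median of all genes.

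Of the 8 genes of chromatin signalling around the break, 1 was past 1.5-fold higher (12.5%, beside 15.8% of all genes). The group median was 0.06. MDC1, the reader of phosphorylated histone H2AX, had a log2 ratio of 0.28 (0.23 to 0.34). The ubiquitin ligases that act after it differed from each other, with 0.11 (-0.01 to 0.22) for RNF8 and -0.33 (-0.42 to -0.25) for RNF168. TP53BP1, which protects ends from resection, had -0.05 (-0.10 to -0.01), and its effectors RIF1 and MAD2L2 (the shieldin subunit REV7) had 0.08 and -0.14. TP53BP1 reads carry a limit, since exons of TUBGCP4 on the opposite strand cover 36.0% of its canonical transcript. In the BRCA1-A complex, UIMC1 (RAP80) had 0.04, whereas BABAM1 (MERIT40) had 268 (Ctrl), 312 (RT) and 270 (RT + shHDAC6) reads, with a ratio of 0.65 (0.41 to 0.90) in RT against Ctrl. BABAM1 was the gene past 1.5-fold, and its reads carry the limit of same-strand overlap given above.

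End joining held both the only lower gene and one of the higher ones. XRCC4, the scaffold that stabilises DNA ligase IV, lies on chromosome 5 (83077498 to 83353787, plus strand, GRCh38). It had 1476 (Ctrl), 650 (RT) and 458 (RT + shHDAC6) reads, so each irradiated library lay well below Ctrl. Its log2 ratio in RT against Ctrl was -0.75 (-0.88 to -0.61), 0.5954 of the Ctrl level. LIG4, the ligase, had -0.21 (-0.28 to -0.15) and DCLRE1C (Artemis), the nuclease that opens hairpins and trims ends, had -0.19 (-0.32 to -0.05). XRCC5 and XRCC6 stood at 0.06 and 0.08, and PRKDC at 0.45 (0.43 to 0.47). XRCC5, XRCC6 and PRKDC thus lay at or above the median of all genes, and XRCC4, LIG4 and DCLRE1C lay below it. The split was read on these genes only. Of the end joining genes in the other list given below, POLM and PAXX were higher and APLF was lower. With library totals XRCC5 and XRCC6 had -0.16 and -0.14, LIG4 -0.43 and XRCC4 -0.97. A change of scaling shifts all genes by the same amount, so it cannot alter this order.

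POLQ, the polymerase of the microhomology-mediated alternative route, lies on chromosome 3 (121431431 to 121545988, minus strand). It had 3299, 3924 and 4287 reads in Ctrl, RT and RT + shHDAC6. The ratio in RT against Ctrl was 0.69 (0.62 to 0.75), opposite in direction to XRCC4 and LIG4, which serve the classical route. Among all 7 end joining genes past the read minimum, 1 was higher and 1 lower (14.29% each), beside 15.8% and 10.1% of all genes. Their median was 0.06. The start of XRCC4 is shown because it was the only lower gene. The window runs from 250 bases before to 50 bases after the start in RefSeq on GRCh38.p14 (chr5:83077297-83077596, plus strand), is written 5′ to 3′, and carries in capitals its only CCAAT box (CCAAT or, on the other strand, ATTGG).
XRCC4: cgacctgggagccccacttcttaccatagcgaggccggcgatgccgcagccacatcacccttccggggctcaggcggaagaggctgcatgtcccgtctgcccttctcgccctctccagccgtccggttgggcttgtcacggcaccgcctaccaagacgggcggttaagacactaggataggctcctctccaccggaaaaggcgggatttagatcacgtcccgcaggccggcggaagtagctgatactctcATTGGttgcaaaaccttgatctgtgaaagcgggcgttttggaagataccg
No match to the E2F-type motif TTTNNCGC was found in these letters on either strand.

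Resection and its helicases had the highest group median, 0.53, with 5 of 6 genes above the median of all genes. In this small group 2 of 6 genes (33.33%) were higher, beside 15.8% of all genes. RECQL4, a helicase of resection and origin firing, had 4803 (Ctrl), 7276 (RT) and 5783 (RT + shHDAC6) reads. It was the member with the largest ratio, 1.03 (0.98 to 1.09), 2.048-fold. EXO1, the 5′ exonuclease of long-range resection, had 1984, 2365 and 2340 reads and a ratio of 0.69 (0.60 to 0.78). DNA2, the nuclease that works with BLM in the parallel branch, had 0.56 (0.47 to 0.66), and BLM, the helicase, had 0.50 (0.41 to 0.59). Both branches of long-range resection were therefore above all-gene level. WRN, a related helicase, had 0.11 (0.00 to 0.23), and RBBP8, which initiates the cut, had 0.03 (-0.03 to 0.09). The genes of initiation, RBBP8 and MRE11 (0.23), thus had smaller ratios than EXO1, DNA2 and BLM, whereas WRN lay below MRE11.

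All 11 genes of the BRCA complexes and strand exchange lay above 0 and above the median of all genes in RT against Ctrl, with a median of 0.33; with library totals 8 of the 11 lay above 0. XRCC3 and XRCC2, which belong to the paralogue complexes that help load the recombinase, were the ones past 1.5-fold (18.18%, beside 15.8% of all genes). XRCC3 had 1216 (Ctrl), 1829 (RT) and 1923 (RT + shHDAC6) reads, and XRCC2 had 4034, 5382 and 5521 reads. Both irradiated libraries were thus above Ctrl for each gene even in raw reads, although Ctrl was sequenced deepest. The ratio was 1.02 (0.92 to 1.13) for XRCC3, or 2.034-fold, and 0.85 (0.79 to 0.91) for XRCC2. The other paralogues RAD51C and RAD51D had 0.30 (0.15 to 0.46) and 0.15 (0.01 to 0.30), so the family did not move as a block.

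The translocase RAD54L stood just under the threshold at 0.57 (0.49 to 0.66), and RAD52, which anneals single strands, had 0.51 (0.42 to 0.59). BRCA1 had 0.38 (0.31 to 0.44) and BRCA2, which delivers the recombinase to resected DNA, had 0.33 (0.24 to 0.41). Their partners had smaller ratios, with 0.25 (0.15 to 0.36) for PALB2, the link between BRCA1 and BRCA2, and 0.14 (0.03 to 0.25) for BARD1, which forms the ubiquitin ligase with BRCA1. RAD54B had 0.21 with an interval that spans 0 (-0.07 to 0.50).

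XRCC3 lies on chromosome 14 (103697609 to 103715504, minus strand), and XRCC2 on chromosome 7 (152644776 to 152676193, minus strand). Exons of KLC1 on the opposite strand cover 34.2% of the canonical XRCC3 transcript, and KLC1 had 2551, 1634 and 1816 reads, a ratio of -0.21 in RT against Ctrl beside 1.02 for XRCC3. Sharing of reads across strands was checked on protein-coding genes at least 95% covered by opposite-strand exons. Of 23 such genes, 11 (47.83%) had at least 100 reads in Ctrl, compared with 44 of 473 (9.302%) of those covered on the same strand. Whether reads of KLC1 were counted for XRCC3 was not tested. The start window of XRCC3 (chr14:103715402-103715701, minus strand, GRCh38.p14) is shown because it had the largest ratio among the genes whose window was used. RECQL4, with a larger ratio, was not among them. It holds 5 CCAAT boxes, in capitals, compared with 1 in XRCC4.
XRCC3: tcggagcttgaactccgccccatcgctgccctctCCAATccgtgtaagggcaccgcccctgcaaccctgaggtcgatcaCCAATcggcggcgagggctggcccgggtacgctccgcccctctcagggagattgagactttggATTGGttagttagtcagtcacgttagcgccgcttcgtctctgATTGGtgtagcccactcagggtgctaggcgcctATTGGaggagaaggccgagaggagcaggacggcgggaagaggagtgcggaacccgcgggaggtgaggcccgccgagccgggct
No match to the E2F-type motif was found in these letters either.

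Among genes of junction resolution and the SMC5/6 complex, 2 of 6 (33.33%) were higher, beside 15.8% of all genes, and the median was 0.32. GEN1, a resolvase of Holliday junctions, had 3050 (Ctrl), 3539 (RT) and 3642 (RT + shHDAC6) reads, a ratio of 0.65 (0.58 to 0.72) in RT against Ctrl. EME1, the regulatory partner of the MUS81 nuclease, had 1292, 1531 and 1318 reads and a ratio of 0.68 (0.57 to 0.79). Its catalytic partner MUS81 had 0.25 (0.15 to 0.35), and SLX4, the scaffold of structure-specific nucleases, had 0.38 (0.28 to 0.47). The 2 subunits of the MUS81-EME1 nuclease were therefore apart by more than the counting error. Exons of LRRC59 on the opposite strand cover 23.2% of EME1, and LRRC59 had a ratio of 0.27. SMC5 had 0.10 (0.03 to 0.16) and SMC6 -0.15 (-0.21 to -0.09), although both form 1 heterodimer.

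The nearest annotated starts of GEN1 (plus strand) and SMC6 (minus strand) lie 59 bases apart on chromosome 2 and point away from each other. SMC6 extends to position 17800242 and may have other starts. SMC6 had 5257, 3502 and 3852 reads and GEN1 3050, 3539 and 3642. In RT reads of SMC6 were fewer and reads of GEN1 were more numerous than in Ctrl. The RefSeq window of GEN1 (chr2:17753619-17753918, plus strand, GRCh38.p14) is shown because 1 stretch serves both genes. The capitals mark its single match to the E2F-type motif TTTNNCGC, at chr2:17753870-17753877, which begins 1 base after the start of GEN1 and lies up to 67 bases before that of SMC6. Another window of GEN1 (chr2:17753888-17754187), not shown, holds a CCAAT box and no match to this motif.
GEN1: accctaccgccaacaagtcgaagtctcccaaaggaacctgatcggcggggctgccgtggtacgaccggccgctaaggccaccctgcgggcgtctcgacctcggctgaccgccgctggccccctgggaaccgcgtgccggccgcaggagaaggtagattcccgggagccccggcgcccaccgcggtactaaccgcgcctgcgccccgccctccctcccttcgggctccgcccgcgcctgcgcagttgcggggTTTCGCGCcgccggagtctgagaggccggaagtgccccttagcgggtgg
The same 8 letters thus stand in the windows of a gene at 0.65 and of a gene at -0.15.

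E2F factors drive genes of S phase from a motif here searched as TTTNNCGC on both strands of the start windows. RefSeq windows were matched for 42 of the 49 genes, and none was used for PRKDC, XRCC5, NBN, RAD54B, DNA2, WRN and RECQL4. Counting a gene once where any of its windows matched, the motif stood in 8 of the 42 (19.0%), compared with 8.23% of 27305 genes with a window. The 27305 genes were not limited to those past the read minimum, so their shares are not matched in expression. The 8 genes were CHEK2, CLSPN, EXO1, GEN1, SMC6, TOPBP1, XRCC2 and XRCC6. The median log2 ratio in RT against Ctrl was 0.35 for these 8 genes and 0.15 for the others with a window, but their range ran from -0.15 (SMC6) to 0.85 (XRCC2). Of the 7 genes past 1.5-fold higher with a window, 3 held the motif, which were EXO1, GEN1 and XRCC2. A stretch around a match is shown for 5 of the 8 genes on the strand of the gene, 5′ to 3′, with the match in capitals and ordered by the ratio in RT against Ctrl. EXO1 has a further match (chr1:241848642-241848649) in another of its windows, which is not shown.
XRCC2: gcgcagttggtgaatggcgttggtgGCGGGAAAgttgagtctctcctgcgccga
EXO1: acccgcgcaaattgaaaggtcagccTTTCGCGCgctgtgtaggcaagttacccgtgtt
CLSPN: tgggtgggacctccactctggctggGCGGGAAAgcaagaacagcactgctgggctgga
CHEK2: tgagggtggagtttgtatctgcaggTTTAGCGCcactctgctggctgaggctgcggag
TOPBP1: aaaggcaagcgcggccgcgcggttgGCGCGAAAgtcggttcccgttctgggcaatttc
The ratios were 0.85, 0.69, 0.48, 0.21 and 0.09 in that order. XRCC2 and CLSPN carry the same 8 letters in capitals, and their ratios differed. The stretches lie at chr7:152676092-152676145 (XRCC2, minus strand), chr1:241848183-241848240 (EXO1, plus strand), chr1:35769951-35770008 (CLSPN, minus strand), chr22:28741797-28741854 (CHEK2, minus strand) and chr3:133661916-133661973 (TOPBP1, minus strand).

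The CCAAT box stood in 22 of the 42 windows (52.4%), compared with 39.7% of all genes with a window. Its genes ranged from XRCC4 at -0.75 to XRCC3 at 1.02, so it is found at both ends of the list. The motif TTTGAA, known as the cell cycle homology region of G2/M genes, stood in 4 windows (9.52%), those of ATM, MDC1, POLQ and RIF1, compared with 18.2% of all genes. A match is a description of letters and not of a bound site.

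Divergent starts were common in the pathway. Of the 42 genes with a window, 24 (57.1%) had the start of another gene on the opposite strand, head to head, within 1000 bases. The share was 20.1% over all 27305 genes with a window. These are more than the 12733 genes past the read minimum, so the background is not matched to the repair genes in expression. In 14 distinct pairs both genes passed the read minimum. The ratios of the 2 genes in RT against Ctrl had opposite signs in 6 of the 14, and they lay between 0.10 and 0.94 apart on the log2 scale, with a median of 0.43. XRCC4 and TMEM167A, 153 bases apart, had -0.75 and -0.11. BRCA1 and NBR1, with the nearest annotated starts 82 bases apart, had 0.38 and -0.57, the widest gap. The nearest of all annotated starts was used for each gene. BRCA1 extends to position 43170245 of chromosome 17, and a start window of it lies at 43125315 to 43125614. The pair with NBR1 may therefore not lie at the main BRCA1 start. LIG4 and ABHD13, 43 bases apart, had -0.21 and 0.45, and ATM and NPAT, a coactivator of histone genes, had -0.02 and 0.41. Closer agreement was found for MRE11 and ANKRD49, at 0.23 and 0.32.

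In RT + shHDAC6 against RT, none of the 48 genes was 1.5-fold apart in either direction, where 3.27% of all genes were higher and 5.76% lower. Among the 7664 genes with at least 1000 reads in 1 library, the level of 43 of the repair genes, 1.122% were higher and 3.64% lower. The median log2 ratio was 0.01, compared with -0.02 for all genes, and the genes ranged from -0.57 (XRCC4) to 0.39 (BRCA2). Counting error alone did not cover all of this spread, since 17 intervals lay above 0 and 15 below. Among all 12733 genes 3170 intervals lay above 0 and 4110 below. Among the 7664 genes with at least 1000 reads in 1 library these were 2162 and 2980. Such intervals were thus common, and their count is no result about the repair genes. A 1.25-fold threshold, chosen after the data were seen, was passed by BRCA2 and TOPBP1 (higher) and by XRCC4, RAD52 and RECQL4 (lower). Among all genes 10.1% were higher and 14.8% lower at that threshold, and the 2 and 3 of 48 were smaller shares than these. The shares of all genes at 1.25-fold were not matched in reads, so the smaller shares are no result about the repair genes.

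BRCA2 had 2268 (Ctrl), 2105 (RT) and 2886 (RT + shHDAC6) reads, a log2 ratio of 0.39 (0.31 to 0.47) in the knockdown library against RT. TOPBP1 had 7595, 5992 and 7830 reads and a ratio of 0.32 (0.28 to 0.37). Both were highest in RT + shHDAC6, where ATR, the kinase that TOPBP1 activates, also had its highest value with 5515 reads and 0.18 (0.13 to 0.24). RAD52 had 2130, 2239 and 1707 reads and a ratio of -0.45 (-0.55 to -0.36). After TMM scaling RAD52 stood at 46.97, 66.76 and 48.75 CPM (reads scaled to library depth), so that RT alone was high. RECQL4 stood at 105.9, 216.9 and 165.2 CPM and had -0.39 (-0.44 to -0.34). RAD52 in RT + shHDAC6 was thus 1.038-fold of Ctrl, and RECQL4 was 1.559-fold of it.

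XRCC4 had the lowest ratio of the 48 genes in RT + shHDAC6 against RT as well as in RT against Ctrl. It stood at 32.55, 19.38 and 13.08 CPM, and its ratio in RT + shHDAC6 against RT was -0.57 (-0.74 to -0.39). The other end joining genes stood between -0.07 (XRCC5 and XRCC6) and 0.15 (DCLRE1C) in that comparison. TP53BP1 had -0.28 (-0.33 to -0.23) and EME1 -0.28 (-0.39 to -0.17). Among the helicases, BLM had -0.22 (-0.31 to -0.13) and WRN -0.20 (-0.32 to -0.08), and 5 of the 6 genes of resection and helicases lay below 0, the exception being RBBP8 at 0.20 (0.14 to 0.27). With library totals 3 of the 6 lay above 0. HDAC6 itself had a ratio of -0.20, within the range of the repair genes.

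In RT + shHDAC6 against Ctrl, 8 genes were higher and 1 was lower, beside 13.5% and 11.7% of all genes. The higher genes were XRCC3 (1.03), XRCC2 (0.83), POLQ (0.75), BRCA2 (0.72), ATR (0.68), RECQL4 (0.64), GEN1 (0.63) and EXO1 (0.61). ATR and BRCA2 passed the threshold here and not in RT against Ctrl, and EME1 (0.40) and BABAM1 (0.38) passed it there and not here. XRCC4 was the lower gene at -1.32 (-1.47 to -1.16), 0.4019 of Ctrl. The median was 0.21 beside 0.04 for all genes. This comparison shares its libraries with both others and adds no independent evidence.

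The values of related gene lists, which were also chosen with earlier results of these data known, are given for the wider pathway. Of 62 other double-strand break genes, 59 passed the read minimum, 11 were higher and 1 lower in RT against Ctrl, and the median was 0.25. Among them 18.64% were higher, near the 15.8% of all genes, and with library totals 4 were higher and 6 lower, with a median of 0.04. PAXX, a Ku-binding end joining factor, had 428 (Ctrl) and 737 (RT) reads, a ratio of 1.22 (1.05 to 1.39). ATRIP, the partner of ATR, had 652 and 1056 reads and 1.13 (0.99 to 1.27), and TELO2, which stabilises the large kinases of this family, had 1790 and 2787 reads and 1.07 (0.99 to 1.16). ATR and its obligate partner ATRIP were thus both above all-gene level, at 0.50 and 1.13, with the limit that exons of TREX1 on the same strand cover 31.64% of the canonical ATRIP transcript. POLM, a gap-filling polymerase of end joining, had 882, 1187 and 728 reads in Ctrl, RT and RT + shHDAC6, with 0.86 (0.74 to 0.99) in RT against Ctrl and -0.77 (-0.90 to -0.63) in RT + shHDAC6 against RT. It was the only one of the 59 past 1.5-fold in the latter comparison. NSMCE3, a subunit of the SMC5/6 complex, had 0.71 (0.59 to 0.84), unlike SMC5 and SMC6. APLF, an end joining scaffold, was lower, with 121 and 50 reads and -0.84 (-1.35 to -0.35).

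Many recombination and resection genes are transcribed in S phase, and genes of replication were read beside them. Of 30 S phase genes, 6 (20.0%) were higher and 0 lower in RT against Ctrl, beside 15.8% and 10.1% of all genes, with a median of 0.41 and 28 above 0; with library totals 1 was higher, the median was 0.20 and 23 lay above 0. The most abundant were MCM7, the replicative helicase subunit, at 0.60 (0.56 to 0.63), PCNA, the sliding clamp, at 0.44 (0.39 to 0.49), and TYMS, which makes thymidylate, at 0.36 (0.32 to 0.40), whose transcript is covered to 66.52% by exons on the opposite strand. The medians of the BRCA and strand exchange genes (0.33), of junction resolution (0.32) and of resection (0.53) thus lay on the same side of the all-gene median as S phase genes, whereas those of chromatin signalling (0.06) and end joining (0.06) lay near the all-gene median. The median of damage sensing and checkpoint genes (0.12) lay between, with 7 of 10 genes above the all-gene median. The part of the S phase genes in the repair genes' ratios was not tested. In RT + shHDAC6 against RT the S phase median was -0.003.

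Of 25 G2/M genes, 1 (4.0%) was higher and 2 (8.0%) lower in RT against Ctrl, beside 15.8% and 10.1% of all genes. Their median was -0.09. With library totals 0 were higher and 5 lower, the median was -0.30 and 6 of 25 lay above 0. In that setting 1046 of all 12733 genes were higher and 2514 lower. TPX2, a spindle factor, had -0.18 (-0.22 to -0.15), MKI67, a proliferation marker, 0.31 (0.30 to 0.33), and UBE2C, which serves the anaphase-promoting complex, 0.46 (0.39 to 0.52). Of 24 p53 target genes past the read minimum, 5 were higher and 5 lower (20.83% each), beside 15.8% and 10.1% of all genes. Their median was -0.04. With library totals 3 were higher and 7 lower, and 7 of 24 lay above 0. BAX, an effector of apoptosis, had -0.06 (-0.18 to 0.05), CCNG1, cyclin G1, -0.91 (-0.98 to -0.84), and TNFRSF10B, a death receptor, 0.68 (0.62 to 0.74).

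**Figure D2:**
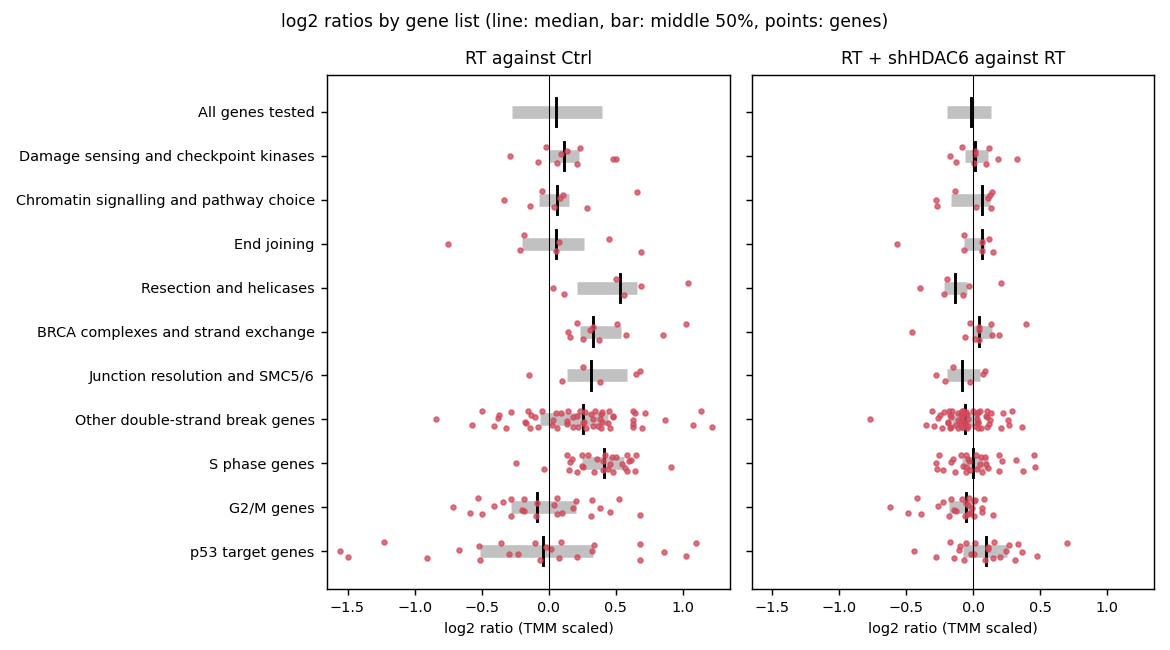
log2 ratios (TMM scaled, horizontal axis) in RT against Ctrl (left) and RT + shHDAC6 against RT (right) for all 12733 genes tested, the repair genes by role, and other lists; points are genes, black lines medians and grey bars the middle 50% of genes. On the left the medians of resection (0.53), strand exchange (0.33), junction resolution (0.32) and S phase genes (0.41) lie right of that of all genes (0.05), and on the right all medians lie between -0.14 and 0.10.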

How the data were processed

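RNA from 3 T24 samples was sequenced, 1 library per group, and the sample labels set the groups. The authors trimmed reads (cutadapt), aligned them with STAR (2.6.1a in the submitters' processing notes) to GRCh38 and deposited whole-number read counts per GENCODE release 28 gene, with no normalisation. The strand setting of the counting is not given in the sources used here, and the library kit differs between the labels and the study's text.

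The 49 repair genes, their roles and the other lists were chosen with earlier results of these data known. All 3 columns were used. Of 58381 gene identifiers, 57754 matched GENCODE release 44, which gave symbols, positions, transcript lengths and exon overlaps. TMM factors came from edgeR 4.0.16 (R 4.3.3) over all 3 libraries. Ratios, Clopper-Pearson intervals and thresholds were computed in Python 3.11.15 with scipy 1.17.1, with a count of 0 set to 0.5. The scripts were tested on simulated data. The study's NOISeq calls were not repeated, because noise for single libraries is simulated there; a fixed 1.5-fold threshold was used. A count of 0 allows up to 3 counts, which is 0.06615, 0.08944 and 0.08568 CPM in Ctrl, RT and RT + shHDAC6. Reads in all libraries were given for those of the 49 genes past 1.5-fold in either single-step comparison. They were also given for the 5 highest and 3 lowest of the 49 by TPM in Ctrl. Further genes were chosen after their values were seen (ATR, ATM, BRCA2, TOPBP1, RAD52, SMC6 and KRT7). From the other repair list up to 5 genes per direction were named, and from the remaining lists the 3 of highest mean level. Start windows were RefSeq sequences of GRCh38.p14.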

Additional observations from a re-analysis of the deposited data

How the results depend on the processing

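No paired analysis was possible because each group had 1 library. With library totals in place of TMM, RT against Ctrl gave 3 higher genes in place of 8 and a median log2 ratio of -0.005 in place of 0.21, which by construction carries the shift of -0.22 in the median of all genes. The same setting gave 4 higher genes in place of 8 and a median of 0.0759 in place of 0.21 in RT + shHDAC6 against Ctrl. A 2-fold threshold left 2 higher and 0 lower genes in RT against Ctrl and 1 higher gene in RT + shHDAC6 against Ctrl. Requiring the whole counting interval past 1.5-fold left 5 higher genes in RT against Ctrl. In RT + shHDAC6 against RT a 1.25-fold threshold, chosen after the data were seen, gave 2 higher and 3 lower genes in place of 0. The other counts and medians stayed close to those reported under median-of-ratios scaling, upper quartile scaling, lower read minimums and another value for zeros. Of the ratios of single genes under other scalings, 148 moved by more than their counting interval and 293 did not. Each scaling shifts all genes of a comparison by the same amount, so these counts mainly reflect read depth. The shifts were too small for any ratio past 1.5-fold to change sign. Depth limits NHEJ1, with 40 reads at most, and with 1 library per group the spread between cultures is unknown.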
